A study of Mus musculus with 6 samples.

Results

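The 9 genes described here encode receptors with which blood stem cells find and hold their place in the bone marrow: the chemokine receptor gene Cxcr4, the integrin chain genes Itga4, Itga5, Itga6, Itgb1 and Itgb2, the selectin ligand gene Selplg, and the adhesion receptor genes Cd44 and Alcam. They were taken from a list of niche homing and adhesion genes, and every probe set that names 1 of them alone was kept, which gave 29 of the 34945 single-gene probe sets, or 9 of 18193 genes. A probe set is a group of short probes on the array that reads 1 stretch of a transcript. The arrays read RNA of long-term haematopoietic stem cells of mouse bone marrow, sorted as CD150+ CD48- cells inside the Sca-1+ c-kit+ lineage- gate, with 3 samples from Irf8+/+ mice (wildtype) and 3 from Irf8-/- mice (knockout), all labelled as taken at 3 weeks and untreated. The sources used here give neither strain, sex and the number of animals behind a sample nor the part of Irf8 that was removed. Values are log2 expression values, so that a difference of 1 is a doubling of signal; with 3 arrays a group, array number sets how precise they are.

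Haematopoietic stem cells move between blood and marrow and stay in the marrow by means of surface receptors. Cxcr4 responds to the chemokine Cxcl12 made by marrow stromal cells, and its signal switches integrins to a state that binds tightly. Integrins are pairs of an alpha and a beta chain: Itga4 with Itgb1 binds Vcam1 and fibronectin, Itga5 with Itgb1 binds fibronectin, and Itga6 with Itgb1 binds laminins. Itgb2 pairs with leukocyte alpha chains such as Itgal and Itgam. Selplg, the protein PSGL-1, carries sugars that selectins on vessel walls hold during rolling, Cd44 binds hyaluronan, and Alcam, also called CD166, binds itself and Cd6.

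None of the 9 genes passed the test for a difference between knockout and wildtype. With limma and Benjamini-Hochberg adjustment over all 45037 probe sets, 0 of 29 member probe sets had an adjusted p under 0.05, beside 0% of all probe sets, and the members' adjusted p ran from 0.906 to 0.998. At an unadjusted p under 0.05 there were 3 member probe sets (10.3%), of which 2 belong to Alcam and 1 to Itga4, beside 4.7% of all probe sets. The groups did not overlap in 4 member probe sets, with knockout higher in 3 (10.3%, beside 6.66% of all) and lower in 1 (3.45%, beside 4.23%). These counts are small, and probe sets of 1 gene share its transcripts. With 1 row per gene, the brightest probe set standing for it, 0 of 9 genes passed over all 18193 genes (0% of all), and 1, Alcam, had an unadjusted p under 0.05, beside 4.84% of all genes. No member gene did when a gene's probe sets were averaged or when replicate number was fitted as a block. The same held without wildtype replicate 1, without wildtype replicate 2 and without knockout replicate 2. Alcam was also the 1 member gene whose groups did not overlap, in the higher direction (6.67% of all genes), and 0 members lay lower without overlap (4.25% of all genes). The median difference was 0.16 over the 9 genes and 0.07 over all genes; the former was -0.32 without knockout replicate 1.

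**Figure D1:**
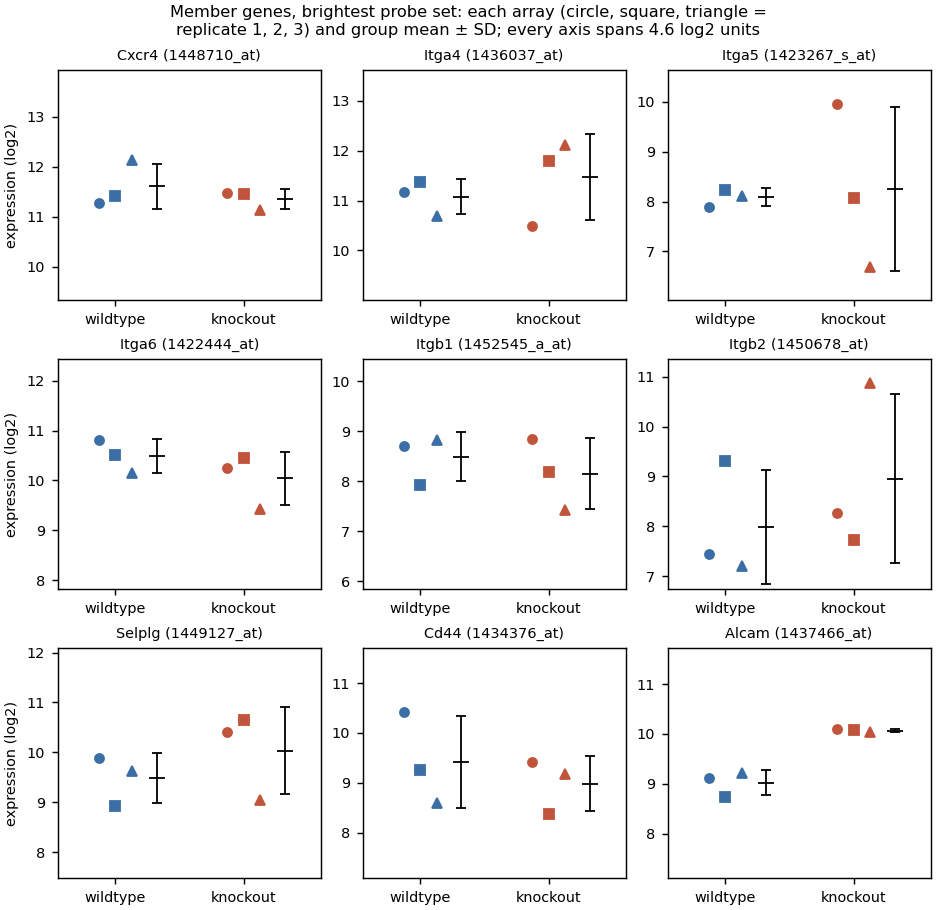
Expression (log2, vertical axes of equal span) of the 9 genes on each array, by the brightest probe set of each; circles, squares and triangles are replicates 1, 2 and 3, and black bars are group means ± SD (n = 3 each). Only in the Alcam panel do the groups not overlap, with knockout arrays from 10.03 to 10.09 and wildtype arrays from 8.74 to 9.22.

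The targeted gene and the sort markers were read in the same arrays. The brighter Irf8 probe set read 4.98, 6.43 and 5.16 in wildtype and 4.91, 6.39 and 6.50 in knockout, and the dimmer one 4.14, 4.02 and 5.08 against 4.61, 5.48 and 3.83. The groups overlapped in both, with differences of 0.41 (SE 0.64) and 0.23 (SE 0.51; -0.20 without knockout replicate 2). Whether these probes lie in the removed part of the gene is unknown here, so the sets do not check the labels, and wildtype and knockout mean arrays so labelled. Of 9 measured stem cell markers, 7 to 9 lay above the array's median in each wildtype array, and 8, 8 and 5 did in the knockout arrays. Among them, Slamf1, the gene of CD150, read 5.97, 9.11 and 6.63 in wildtype and 9.02, 8.49 and 4.71 in knockout. Kit read 9.38, 9.76 and 9.41 in wildtype and 10.46, 8.93 and 8.09 in knockout. Procr was the 1 of the 9 markers whose groups did not overlap, beside 4.25% of all genes lower without overlap. It read 10.24, 10.63 and 10.77 in wildtype and 10.21, 9.80 and 9.38 in knockout (difference -0.75, SE 0.36). Of the 9 differences, 3 were above 0 and 6 below, with a median of -0.36 beside 0.066 over all genes. The Sca-1 gene Ly6a was not measured by a single-gene probe set. Cd48, whose protein the sort leaves out, read 3.13 to 4.54 in wildtype and 7.60, 9.42 and 3.55 in knockout. The summed linear signal of 10 measured neutrophil genes was 5228 to 7722 in wildtype and 17738 to 54511 in knockout. Its highest value was in knockout replicate 3. All 10 differences were above 0, beside 10293 of all 18193 genes, and 0 passed after adjustment, beside 0% of all genes. An unadjusted p under 0.05 in limma was reached by 3 of the 10, beside 4.84% of all genes. In 4 of the 10, knockout lay higher without overlap, beside 6.67% of all genes. The mean correlation of an array with the others was 0.845 for knockout replicate 3 and 0.873 to 0.893 for the rest. In bulk RNA of sorted cells, fewer cells of a type and less RNA per cell cannot be told apart.

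Cxcr4, the receptor for the marrow chemokine, did not differ between the groups beyond the spread of the arrays. Its 1 probe set read 11.27, 11.42 and 12.13 in wildtype and 11.48, 11.45 and 11.13 in knockout. Wildtype replicate 3 was the highest array and knockout replicate 3 the lowest, and the groups overlapped. The difference was -0.26 (SE 0.26, 95% interval from -0.89 to 0.38; adjusted p = 0.907 in limma), and without wildtype replicate 3 it was 0.0019. As a fold, the interval runs from 0.538 to 1.3.

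The promoter of Cxcr4 is printed beside that of Alcam because these are the member with the narrowest spread over all 6 arrays and the member whose groups separated. Both are RefSeq sequences of build GRCm38.p6, each from 250 bases before the start of transcription to 50 after it, 5′ to 3′ on the gene's strand, which is the minus strand for both genes; Cxcr4 lies at chr1:128592250-128592549 and Alcam at chr16:52453032-52453331. Capitals mark matches, on either strand, to the GC box GGGCGG, the TATA box TATAAA, or GAGGAA, a core bound by the myeloid factor PU.1.
Cxcr4: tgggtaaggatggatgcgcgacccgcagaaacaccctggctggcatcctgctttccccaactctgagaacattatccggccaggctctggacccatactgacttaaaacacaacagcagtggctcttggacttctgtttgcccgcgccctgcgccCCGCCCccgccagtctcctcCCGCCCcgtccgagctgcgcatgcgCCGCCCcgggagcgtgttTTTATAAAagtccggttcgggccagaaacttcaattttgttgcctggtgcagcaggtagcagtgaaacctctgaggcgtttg
Alcam: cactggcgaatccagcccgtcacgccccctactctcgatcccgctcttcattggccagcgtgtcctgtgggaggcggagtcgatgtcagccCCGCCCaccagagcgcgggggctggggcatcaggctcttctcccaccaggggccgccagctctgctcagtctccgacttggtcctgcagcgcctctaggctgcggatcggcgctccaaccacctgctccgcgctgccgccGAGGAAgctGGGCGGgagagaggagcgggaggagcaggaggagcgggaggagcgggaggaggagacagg
Cxcr4 held 3 GC boxes, between bases -95 and -45 from the start, and a TATA box on both strands between -32 and -25. Alcam held 2 GC boxes, at -159 to -154 and at -10 to -5, and 1 PU.1-type core at -19 to -14, with no TATA box in this window. Of the 9 members, 6 had a promoter in the RefSeq table, namely Cxcr4, Itga4, Itga5, Itgb1, Cd44 and Alcam; Itga6, Itgb2 and Selplg had none. A GC box was in 6 of the 6 and in 35.7% of all 32851 promoters of that length, GAGGAA in 4 of 6 and in 28.3% of all, and TATAAA in 1 of 6 and in 13.6% of all. The interferon response type motif GAAANNGAAA was in 0 of 6 and in 3.44% of all, and GGAANNGAAA, a composite of an ETS and an IRF site, was in 0 of 6 and in 2.72% of all. GC content was 58% to 69.7% in the 6, beside a median of 52.7%.

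The alpha chain Itga4 gave different answers in its 5 probe sets. The brightest, 1436037_at, read 11.18, 11.37 and 10.69 in wildtype and 10.49, 11.79 and 12.12 in knockout, a difference of 0.39 (SE 0.45). Here knockout replicate 1 was the lowest of the 6 arrays and knockout replicate 3 the highest, and the difference was 0.88 without the former and 0.061 without the latter. Probe set 1456498_at read 8.61, 8.44 and 9.42 in wildtype and 8.12, 7.29 and 7.34 in knockout, so that every knockout array lay below every wildtype array. Its difference was -1.24 (SE 0.51; unadjusted p = 0.0495, adjusted p = 0.906 in limma). Of the other 3 sets, 1421194_at differed by 0.52, 1450155_at by -0.41 and 1427615_at by -1.11, with overlapping groups in each. With 1 array left out these ran from 0.25 (without wildtype replicate 1) to 0.76, from -0.78 to -0.16 (without wildtype replicate 3) and from -1.74 to -0.32 (without wildtype replicate 1). In all, 2 sets of Itga4 lay above 0 and 3 below, and with the mean of all 5 the gene's difference turned from 0.39 to -0.37.

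Itga5, the fibronectin receptor chain, was the alpha chain among the members with the widest spread between knockout arrays. Probe set 1423267_s_at read 7.89, 8.24 and 8.12 in wildtype and 9.96, 8.08 and 6.69 in knockout. The wildtype arrays thus lay between knockout replicates 1 and 3, and the SD was 0.18 in wildtype and 1.64 in knockout (n = 3 each). The difference was 0.16 (SE 0.85) with all arrays and -0.70 without knockout replicate 1. A second bright set, 1423268_at, read 8.28, 5.20 and 7.54 in wildtype and 6.01, 6.19 and 4.94 in knockout, a difference of -1.29 (SE 0.89) that was -2.20 without wildtype replicate 2 and -0.66 without wildtype replicate 1. The 2 remaining sets lay under the median level of all probe sets, and 1 of them, 1458996_at, read 5.04 in knockout replicate 1 and 2.70 to 3.32 in the other 5 arrays. Knockout replicate 1 was the highest array in this set and in 1423267_s_at.

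Itga6, the laminin receptor chain, showed the smallest spread among the 3 alpha chains. Probe set 1422444_at read 10.82, 10.50 and 10.14 in wildtype and 10.24, 10.45 and 9.43 in knockout, and 1422445_at read 9.97, 9.32 and 10.27 against 10.05, 9.61 and 9.77. Groups overlapped in both, and knockout replicate 3 was the lowest array in the first only. The differences were -0.45 (SE 0.37, 95% interval from -1.34 to 0.44) and -0.05 (SE 0.36). Without knockout replicate 3 the first was -0.14, and with 1 array left out the second ran from -0.31 to 0.16.

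Itgb1, the beta chain that pairs with all 3 of these alpha chains, had 2 bright and 4 dim probe sets. The bright set 1452545_a_at read 8.71, 7.93 and 8.83 in wildtype and 8.85, 8.18 and 7.43 in knockout, a difference of -0.34 (SE 0.56) that was 0.024 without knockout replicate 3. The other, 1426918_at, read 7.60, 9.26 and 8.62 in wildtype and 8.22, 8.58 and 7.36 in knockout, a difference of -0.43 (SE 0.62) that was -0.05 without wildtype replicate 2, -0.087 without knockout replicate 3 and -0.88 without wildtype replicate 1. Knockout replicate 3 was the lowest of the 6 arrays in both. In 2 dim sets the same array stood far above the rest. There, 1426919_at read 5.53 in knockout replicate 3 and 2.70 to 2.82 elsewhere, and 1426920_x_at read 7.06 there and 3.56 to 3.82 elsewhere. The second of these is the member set outside Alcam whose groups separated with knockout higher, yet knockout replicates 1 and 2 exceeded the highest wildtype value, 3.63, by little, at 3.82 and 3.74. Its difference was 1.28 with all arrays (SE 0.89) and 0.18 without knockout replicate 3. Sets with the ending _x_at, _s_at or _a_at can read related transcripts, of the same or of another gene. They are grouped below as open to cross-hybridisation, and the Itga5 set 1423267_s_at is among them.

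Itgb2, the beta chain of leukocyte integrins, varied most among the 9 genes. Its 1 probe set read 7.45, 9.30 and 7.21 in wildtype and 8.26, 7.72 and 10.88 in knockout. Knockout replicate 3 was the highest array and wildtype replicate 2 the next, above knockout replicates 1 and 2. The difference was 0.97 (SE 1.01, 95% interval from -1.45 to 3.39; adjusted p = 0.907 in limma), and without knockout replicate 3 it was 0.0055. Knockout replicate 3 also had the highest neutrophil gene sum, 54511, beside 19395 and 17738 in the other knockout arrays. Wildtype replicate 2 had the highest sum of its group, 7722, but the genes of that list went both ways there. Its Mpo read 11.38, beside 6.91 and 3.47 in wildtype replicates 1 and 3. Its Camp (6.68) and Ngp (6.31) were the lowest of the wildtype arrays. The part of neutrophil transcripts in the Itgb2 signal was not tested. Of its partner chains, Itgal read 5.54, 5.13 and 4.46 in wildtype and 4.58, 4.95 and 6.33 in knockout, and Itgam 3.41, 4.06 and 3.86 against 3.75, 3.98 and 4.62. Both lay under the median gene level of 5.81 on average, and both were highest in knockout replicate 3.

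Selplg, the selectin ligand, read 9.89, 8.92 and 9.63 in wildtype and 10.41, 10.65 and 9.04 in knockout. Knockout replicates 1 and 2 lay above every wildtype array, and knockout replicate 3 above wildtype replicate 2 alone. The difference was 0.55 (SE 0.53, 95% interval from -0.73 to 1.84; adjusted p = 0.907 in limma). Without knockout replicate 3 it was 1.05, and with 1 array left out its lowest value was 0.25.

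Cd44, the hyaluronan receptor, had 4 probe sets with different patterns. The brightest, 1434376_at, read 10.42, 9.26 and 8.60 in wildtype and 9.41, 8.37 and 9.18 in knockout, a difference of -0.44 (SE 0.59) that was 0.057 without wildtype replicate 1. Probe set 1452483_a_at read 8.95, 7.68 and 7.99 in wildtype and 9.17, 8.87 and 9.60 in knockout, a difference of 1.01 (SE 0.50; unadjusted p = 0.0889). Knockout replicate 2 alone kept the groups of that set from separating, at 8.87 under wildtype replicate 1. Probe set 1423760_at read 9.34, 8.59 and 7.30 in wildtype and 9.37, 6.45 and 9.30 in knockout, and knockout replicate 2 was its lowest array. The fourth set, 1443265_at, lay under the median level and differed by -0.45 (SE 0.39; -0.21 without wildtype replicate 1 and -0.87 without wildtype replicate 3).

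Alcam, an immunoglobulin-type adhesion receptor, had the clearest separation of the groups. Probe set 1437466_at read 9.11, 8.74 and 9.22 in wildtype and 10.09, 10.08 and 10.03 in knockout. The knockout arrays lay within 0.06 of each other (SD 0.035, n = 3), and the lowest of them stood above the highest wildtype array. The difference was 1.04 (SE 0.32, 95% interval from 0.28 to 1.81; unadjusted p = 0.0151, adjusted p = 0.906 in limma), a fold of 2.06. Probe set 1437467_at read 5.95, 3.74 and 6.04 in wildtype and 8.68, 7.23 and 8.38 in knockout, again without overlap. Its difference was 2.85 (SE 0.80, 95% interval from 0.92 to 4.78; unadjusted p = 0.0106, adjusted p = 0.906). Leaving out any 1 array kept these differences between 0.90 and 1.14 and between 2.10 and 3.29.

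The remaining 3 Alcam sets did not separate the groups. Probe set 1426301_at read 9.19, 6.55 and 8.22 in wildtype and 7.83, 8.68 and 9.49 in knockout, a difference of 0.68 (SE 0.82) that was -0.04 without wildtype replicate 2. Probe set 1426300_at read 6.52, 4.88 and 8.71 in wildtype and 7.91, 5.43 and 8.67 in knockout, a difference of 0.64 (SE 1.24) that was -0.27 without wildtype replicate 2. The dim set 1443086_at read between 2.21 and 2.84 on all arrays. Wildtype replicate 2 was thus the lowest wildtype array in all 5 sets. Knockout replicate 2, which had the lowest neutrophil gene sum of the knockout arrays (17738) and the highest Cd48 (9.42), was their lowest array in 1437467_at and 1426300_at. In 1437466_at (10.08) and 1426301_at (8.68) it lay between the other knockout arrays, and in 1443086_at (2.84) it was the highest. The part of other cells in the Alcam signal was not tested.

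**Figure D2:**
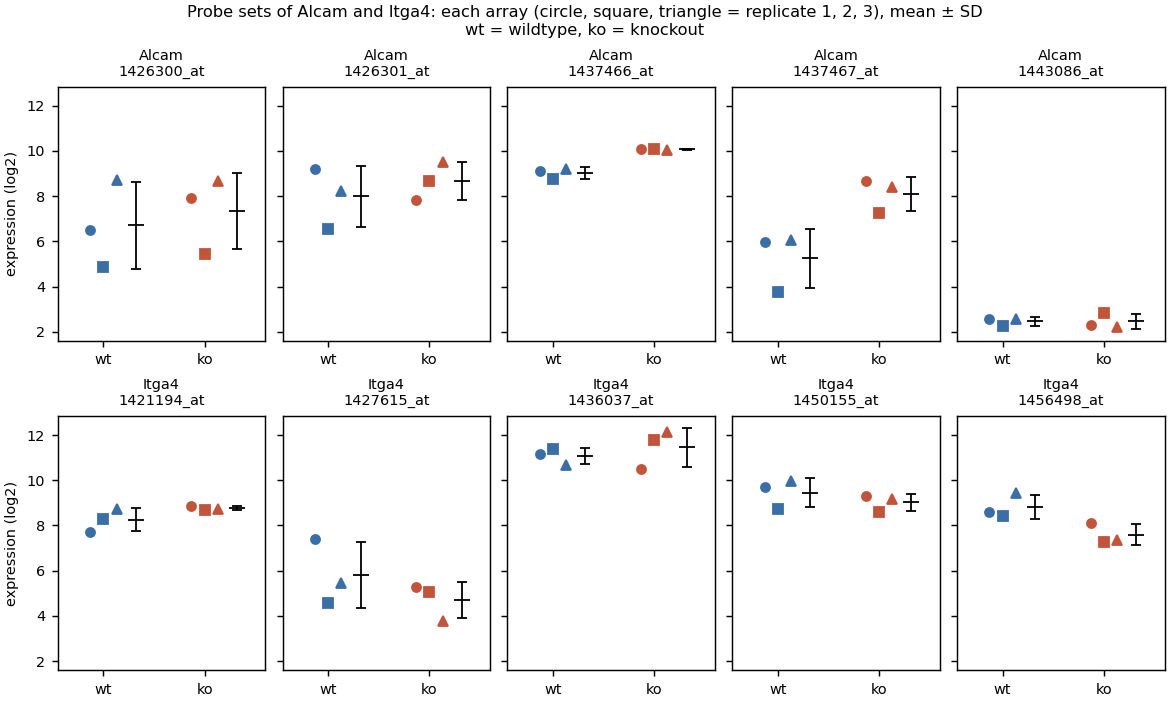
Expression (log2, shared vertical axis) in each array for the 5 probe sets of Alcam (top) and the 5 of Itga4 (bottom); symbols are replicates 1 to 3, black bars are group means ± SD (n = 3 each). In 1437466_at and 1437467_at all knockout points lie above all wildtype points, and in Itga4 1456498_at all lie below, while the other sets overlap.

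Across the 29 probe sets, 16 differences were above 0 and 13 below, with a median of 0.16 beside 0.065 over all probe sets. With 1 row per gene, 5 of the 9 members lay above 0, beside 10293 of all 18193 genes, so the split is close to that of the whole array. Of the 6 genes with several sets, 5 had sets on both sides of 0, and Itga6 was the exception with both below. The median SE was 0.53 for the member sets and 0.44 for all probe sets. By array, knockout replicate 3 was the lowest of the 6 for 4 of the 9 genes (Cxcr4, Itga5, Itga6 and Itgb1) and the highest for 2 (Itga4 and Itgb2), and knockout replicate 1 was the highest for 3 (Itga5, Itgb1 and Alcam). The median difference of the 9 genes from their wildtype means was 0.28 in knockout replicate 1, -0.04 in knockout replicate 2 and -0.44 in knockout replicate 3, while the wildtype arrays lay between -0.17 and 0.10.

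**Figure D3:**
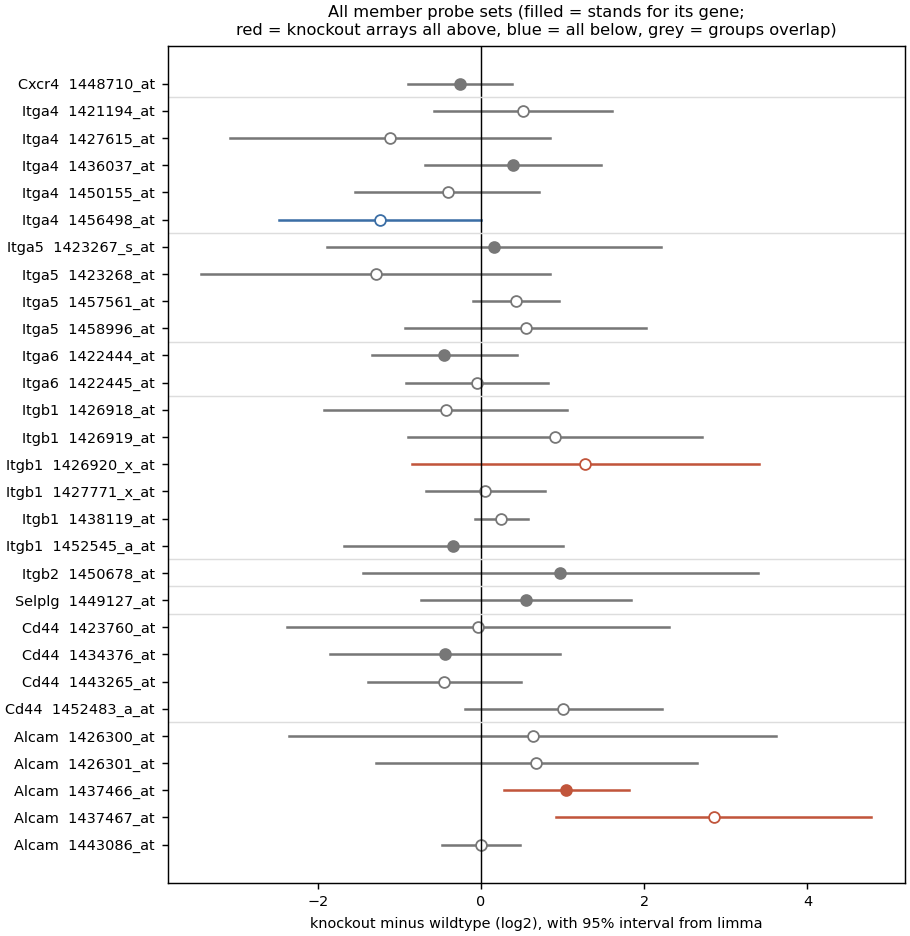
Knockout minus wildtype difference (log2, horizontal axis) of all 29 member probe sets with 95% intervals from limma; filled points stand for their gene, red and blue mark sets whose groups do not overlap. Intervals of the 2 red Alcam sets start at 0.28 and 0.92, and sets of 1 gene often lie on both sides of 0.

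Genes that work with these receptors were read from 8 lists with 115 genes, of which 107 were measured by a single-gene probe set. With limma over all 18193 genes, 0 of the 107 passed, and 6 (5.61%) had an unadjusted p under 0.05, 3 higher and 3 lower in knockout, beside the 4.84% of all genes given above. Without overlap, 7 lay higher (6.54%, beside 6.67% of all genes) and 9 lower (8.41%, beside 4.25%). The list medians given next are small, and under the settings compared they ran from -0.51 to 0.43 over all 8 lists; each but that of the other stem cell adhesion genes changed sign in at least 1 setting. Among 13 other integrin alpha chains the median difference was 0.11. Itgav, the alpha chain of vitronectin receptors, read 5.27, 8.25 and 7.83 in wildtype and 7.55, 9.23 and 9.39 in knockout (difference 1.61, SE 0.96; 0.0027 with the mean of its probe sets and 0.68 without wildtype replicate 1), and Itgax, a dendritic cell chain, differed by 0.43 (SE 0.22) at a level of 4.25 to 4.99. Among 6 other beta chains the median was -0.11. Itgb4, a laminin receptor chain of epithelia, read 5.52, 5.37 and 5.44 in wildtype and 5.93, 7.13 and 7.60 in knockout (difference 1.45, SE 0.51). It has no reading without sets open to cross-hybridisation. Itgb3, the platelet integrin chain, differed by 0.75 (SE 0.43, and -0.37 with the mean of its probe sets).

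Proteins that link integrins to the cell skeleton had a median difference of -0.05 over 19 genes. Zyx, the focal adhesion protein zyxin, read 10.90, 10.83 and 10.39 in wildtype and 10.98, 11.57 and 11.51 in knockout (difference 0.65, SE 0.27), and the scaffold Pxn, paxillin, differed by 0.93 (SE 0.46; 0.37 with the mean of its probe sets and 0.50 without knockout replicate 2). Neither gene's groups overlapped. The 16 genes of the Cxcr4 axis and of migration signalling had a median of -0.18. Rhoa, a GTPase that controls cell contraction, read 11.54, 11.70 and 11.77 in wildtype and 10.70, 11.20 and 10.84 in knockout (difference -0.76, SE 0.21; unadjusted p = 0.00918, adjusted p = 0.887). Arrb2, the arrestin that ends chemokine receptor signals, differed by -1.09 (SE 0.48; -0.58 without sets open to cross-hybridisation and -0.63 without knockout replicate 2). Cxcl12, the Cxcr4 ligand, which marrow stromal cells make, read 4.19, 9.07 and 7.30 in wildtype and 4.55, 9.24 and 9.38 in knockout, so that both groups held low and high arrays (difference 0.87, SE 1.70; 0.034 with the mean of its probe sets). The 7 stromal and endothelial markers summed to 696 to 1509 in wildtype and 568 to 2465 in knockout. As Cxcl12 is itself in that sum, the sum is no separate measure of such cells. Where Cxcl12 was low, the brightest of the 7 was Emcn, at 9.20 in wildtype replicate 1 and 8.62 in knockout replicate 1. Col1a1 read 5.96, 8.57 and 7.38 in wildtype and 6.36, 6.15 and 9.38 in knockout. Pdgfrb read 5.12, 6.52 and 6.87 against 4.59, 2.89 and 10.02. Both were thus lowest of the wildtype arrays in replicate 1, as Cxcl12 was, but lowest of the knockout arrays in replicate 2, where Cxcl12 was high. Lepr was highest in knockout replicate 2, at 6.73, and Cdh5 and Kdr reached at most 4.62 and 4.13. The part of stromal cells in the Cxcl12 signal was not tested.

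The 17 selectin, carrier and glycan genes had a median difference of -0.14. Gfus, an enzyme that makes the fucose donor for selectin ligands, read 7.82, 8.06 and 8.75 in wildtype and 6.20, 7.10 and 7.35 in knockout (difference -1.33, SE 0.56; unadjusted p = 0.0523). C1galt1, which extends O-linked sugars, differed by -1.23 (SE 0.58; 0.072 with the mean of its probe sets). The 11 ligands and counter-receptors had a median of -0.05. Vcam1, the ligand of the Itga4 pair, read 5.21 to 5.48 in wildtype and 5.25 to 5.51 in knockout, Has2, a hyaluronan synthase, differed by 0.54 (SE 0.17) at a level of 2.56 to 3.45, and Lama5, a laminin chain, by 1.05 (SE 0.60). The 10 Cd44 linkers and sheddases had a median of 0.13. Msn, moesin, which ties Cd44 to actin, read 11.08, 11.31 and 10.84 in wildtype and 10.43, 10.11 and 10.62 in knockout (difference -0.69, SE 0.27), whereas its relative Rdx, radixin, read 10.16, 9.15 and 8.19 against 10.61, 10.32 and 10.21 (difference 1.22, SE 0.55; 0.64 with the mean of its probe sets and 0.73 without wildtype replicate 3). The groups of Msn and of Rdx did not overlap, in opposite directions. The 15 other stem cell adhesion genes had a median of -0.25. F11r, the junction protein JAM-A, read 6.85, 6.60 and 7.23 in wildtype and 5.14, 5.71 and 3.60 in knockout (difference -2.08, SE 0.59; unadjusted p = 0.0101, adjusted p = 0.887; -1.13 with the mean of its probe sets), and Mcam differed by -0.25 (SE 0.11) at a level of 2.43 to 2.75. Mcam too has no reading without sets open to cross-hybridisation.

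**Figure D4:**
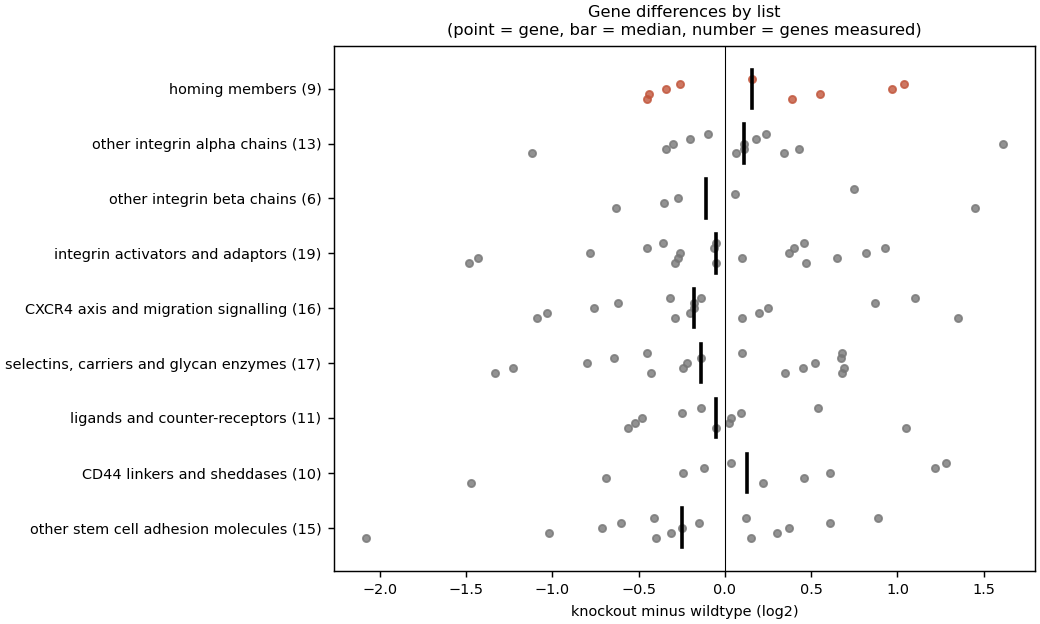
Knockout minus wildtype differences (log2, horizontal axis) of the 9 members (red, top row) and of the genes of 8 related lists (grey); black bars are list medians. Each list lies on both sides of 0, with medians from -0.25 to 0.16.

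Genes with the array profile most like each member's were found by the root-mean-square difference between log2 profiles over the 6 arrays, each centred on its mean, among 9095 other genes above the median level. The nearest to Cxcr4 were Mrpl54 (0.0936) and Paip2 (0.113), to Itga4 Mllt10 (0.149) and Pim3 (0.183), and to Itga5 Ginm1 (0.161) and Foxj2 (0.215). Itga6 lay nearest to Ndufb8 (0.138) and Ndufa5 (0.141), Itgb1 to Cpsf4 (0.0834) and Zcrb1 (0.113), and Selplg to Wdr18 (0.105) and Kmt2b (0.123). Cd44 lay nearest to Cers5 (0.204) and Cpq (0.206) and Alcam to Tcf25 (0.153) and Ino80e (0.182). Itgb2 had the most distant neighbours, Asph (0.342) and Fcor (0.356), and the widest profile of its own, 1.27 about its mean. Tcf25 read 10.35, 9.62 and 10.15 in wildtype and 11.11, 11.37 and 11.17 in knockout. Its groups separated as those of Alcam did, which follows from its choice by likeness to the Alcam profile. With 6 arrays and this many genes, close profiles were found for every member, and they are given as a description.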

How the data were processed

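Per the labels' protocols, RNA of the sorted cells was amplified over the whole transcriptome and read on Affymetrix mouse arrays. The authors deposited log2 values, 1 per probe set and array. Per the submitters' processing notes, Partek, RMA and Affymetrix Expression Console were used; their versions and settings were not given in the sources used here. Background correction in RMA compresses differences of dim probe sets. The log2 scale was read from the values.

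Of 45037 probe sets, 34945 named 1 gene in the platform annotation, and 34741 of these matched RefSeq by Entrez number. Knockout minus wildtype was fitted by lmFit and a trended eBayes (limma 3.58.1 under R 4.3.3), on all probe sets and on 1 row per gene (brightest probe set), with Benjamini-Hochberg adjustment over the whole table and a threshold of 0.05. Intervals are 95% intervals of that fit. The fit was also run on simulated data with known changes, to check the mean error of its differences. Coverage of the intervals was not checked. Tables and figures used Python 3.11.15 with pandas 2.3.3. The members and lists were chosen with earlier results of these data known. From each list the 2 genes with the smallest unadjusted p are named, with the 2 of nearest profile to each member, and Itgal, Itgam, Cxcl12 and Vcam1 were added for their known pairing with members. The labels call the samples biological replicates without naming animals. The p-values and SEs rest on the spread between samples of a group, drawn by eBayes toward a trend over all rows of the fit. They are therefore not based on a row's own SD alone. The spread between samples may not be the spread between animals. Alternatives were no trend, array weights, mean of probe sets, dropping sets open to cross-hybridisation, a filter on level, median centring, quantile normalization, a replicate block and leaving out each array.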

Additional observations from a re-analysis of the deposited data

How the results depend on the processing

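Under the 14 alternatives run, 0 member probe sets, 0 member genes and 0 genes of the related lists passed the threshold, the replicate block included, so that no call changed. Over all genes, 1 passed when a gene's probe sets were averaged and 1 with arrays centred on their median, against 0 otherwise. Same-numbered arrays did not deviate together (correlations -0.0237, -0.00927 and -0.0115), and with the replicate block 1952 probe sets had an unadjusted p under 0.05 against 2115 without it. The median over the 9 genes, 0.16, was -0.26 without sets open to cross-hybridisation, where Itga5 is read by another set (-1.29), and ran from -0.32 to 0.24 with 1 array left out. With the mean of each gene's sets, differences changed sign for Itga4 (-0.37), Itga5 (-0.038), Itgb1 (0.29), Cd44 (0.02), C1galt1 (0.072), Itgb3 (-0.37) and Vcam1 (-0.12), since their sets differ; with array weights they did for Alcam 1443086_at (0.051) and Itgal (-0.032). With 1 array left out, signs changed within these ranges: Cxcr4 -0.43 to 0.0019, Itga5 1423267_s_at -0.70 to 0.94, Itga5 1458996_at -0.20 to 0.98, Itga6 1422445_at -0.31 to 0.16, Itgb1 1426919_at -0.022 to 1.39, Itgb1 1427771_x_at -0.23 to 0.26, Itgb1 1452545_a_at -0.68 to 0.024, Cd44 1423760_at -0.59 to 0.92, Cd44 1434376_at -0.86 to 0.057, Alcam 1426300_at -0.27 to 1.64, Alcam 1426301_at -0.04 to 1.28, Alcam 1443086_at -0.19 to 0.12, Cxcl12 -0.46 to 2.46, Itgal -0.28 to 0.59, Vcam1 -0.038 to 0.11 and Irf8 1416714_at -0.20 to 0.63. The cause was not tested. The medians of the 8 lists lay between -0.51 and 0.43 over all settings. Differences that kept their sign under all alternatives run were those of Alcam 1437466_at and 1437467_at, Itga4 1456498_at, Selplg and Itgb2 among others, though several moved by over 1.5 times: with 1 array left out Itgb2 ran from 0.0055 to 1.63 and Lama5 from 0.57 to 1.58. Dim sets, near the lower end of the signal, leave little room for a lower value.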

Other observations

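Some genes of the related lists varied widely between arrays of a group; the 4 given here were chosen after their values were seen. Itga8, an integrin alpha chain of mesenchymal cells, read 6.83 in wildtype replicate 1 and between 2.44 and 3.28 in the other 5 arrays. Mmp9, a neutrophil gelatinase that can cut Cd44, read 7.91 in knockout replicate 3 and between 3.95 and 4.81 elsewhere. Selp, the P-selectin gene, read 7.33, 4.05 and 9.35 in wildtype and 8.40, 6.95 and 4.10 in knockout, with no separation of the groups. Dpp4, a protease that trims Cxcl12, read 8.80, 6.95 and 7.26 in wildtype and 9.45, 10.31 and 6.54 in knockout, with knockout replicates 1 and 2 above every wildtype array and knockout replicate 3 below them.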
